A study of Homo sapiens with 4 samples.

Results

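The nectin and nectin-like adhesion genes examined here are 8 genes chosen by name: the nectins NECTIN1, NECTIN2, NECTIN3 and NECTIN4, the nectin-like genes PVR, CADM1 and CADM4, and AFDN, which encodes the nectin adaptor afadin. All 8 were found among the 61860 genes of the deposited count table, and all 8 passed the filter on low counts that left 17465 genes for testing. The samples were total RNA from cells labelled HT1376, an established bladder cancer cell line, grown in serum-containing medium. They had received either 1 nM enfortumab vedotin (EV, n = 2) or the control labelled WFI (n = 2), for 48 h in both cases. EV is an antibody against the nectin-4 protein joined to monomethyl auristatin E, a drug that disrupts microtubules, so NECTIN4 encodes its antigen. The labels name no transgene, sorting step or batch, and leave unsaid whether replicates came from separate cultures, so the p-values rest on a sample-to-sample spread that may be technical only.

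Nectins are cell surface proteins of the immunoglobulin superfamily that bind each other across cell contacts, most strongly between unlike members such as nectin-1 with nectin-3 or with nectin-4. Inside the cell their tails bind afadin, which links them to actin filaments, and nectin contacts help to assemble cadherin-based adherens junctions in epithelia such as the urothelium. Nectin-like proteins share the extracellular fold and do not bind afadin directly. PVR and nectin-2 on tumour cells are also ligands of lymphocyte receptors, and nectin-4 is abundant on many urothelial cancers.

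In EV-treated cells NECTIN1 and PVR rose, while AFDN, NECTIN4, NECTIN3 and NECTIN2 fell. CADM1 and CADM4 did not pass the test. The rises were 2.65-fold for NECTIN1 and 1.45-fold for PVR, and AFDN stood at 0.526 times its WFI level. Thus 6 of 8 genes were called by edgeR's quasi-likelihood test at a Benjamini-Hochberg adjusted p below 0.05, 2 higher and 4 lower. NECTIN4 reached the filter's minimum in the WFI samples alone, so at its EV level it could be tested only because it was higher in WFI. Over all genes tested 66% were called, 34.5% higher and 31.5% lower, so the share of nectin-family genes called lay near the background. Their median log2 fold change was -0.17, beside 0.02 for all genes tested. The CPM of EV and WFI samples did not overlap for 6 of the 8 genes, against 82.8% of all genes tested. Levels are in CPM, the count divided by the library size after TMM scaling, so a rise or fall is relative to the other genes of the sample. In RNA from whole cultures, fewer cells of a kind and less RNA per cell cannot be told apart.

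**Figure D1:**
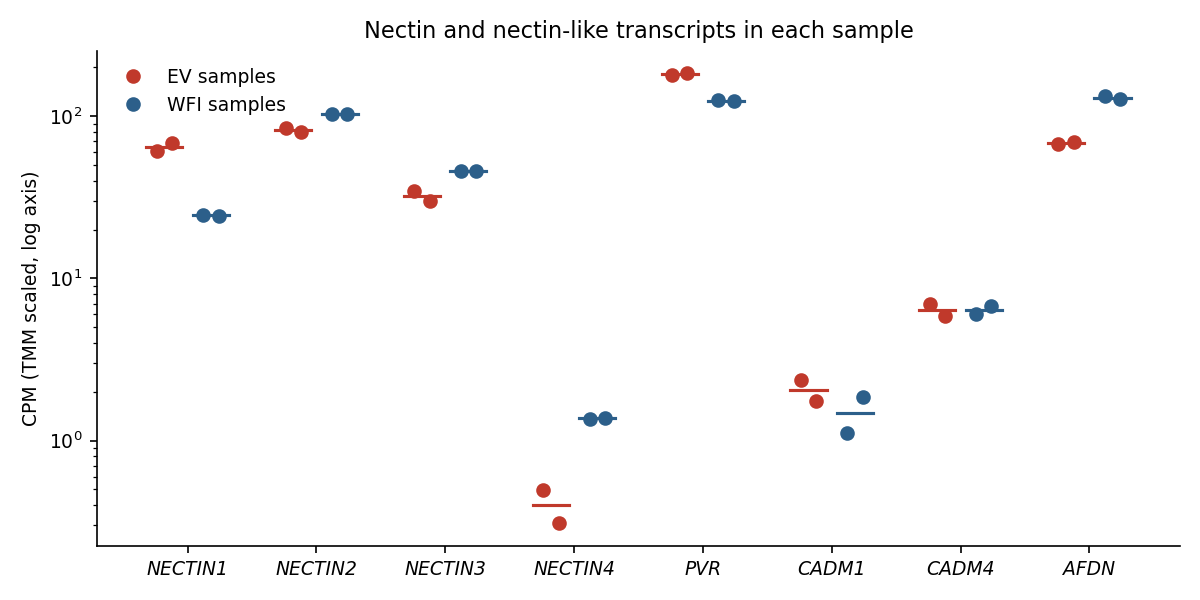
CPM of each of the 8 genes on a log axis, with 1 point per sample, EV samples in red and WFI samples in blue, and a bar at the mean of each group. NECTIN1 and PVR lie higher in both EV samples, NECTIN2, NECTIN3, NECTIN4 and AFDN lie lower, and the points of CADM1 and CADM4 overlap between groups.

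Total counts were 19368791 and 20727175 in the EV samples and 19447577 and 19669037 in the WFI samples. Replicates differed by more than counting noise, with chi-square values of 4.52 (EV) and 2.18 (WFI) per degree of freedom. These values do not show whether replicates came from separate cultures. Each library was counted as a sample. The labelled cell type was checked against 18 epithelial and urothelial markers. Of these, 5 had fewer than 10 counts in each EV sample and 11 in each WFI sample, and KRT20 had 0 counts in all 4 samples. CDH1, which encodes E-cadherin, had 9 and 7 counts in EV and 0 and 1 in WFI, and KRT19 had 0 and 1 counts in EV and 1 and 6 in WFI. The keratin gene KRT8 had 34354 and 36851 counts in EV and 15269 and 15213 in WFI. KRT7 and KRT18 had 7933 to 14581 counts in every sample, and PPARG and FOXA1 had 444 to 840. The mesenchymal gene VIM had 36038 and 37508 counts in EV and 35700 and 35984 in WFI. A count of 0 allows a level of up to 0.165 and 0.155 CPM in the EV samples and 0.145 and 0.143 CPM in the WFI samples, by counting error only, at a limit of 3 counts. The near absence of CDH1 and KRT19 beside abundant VIM goes against the label of an epithelial bladder cancer line. The levels of KRT7, KRT8, KRT18, PPARG and FOXA1 do not, so the markers are mixed. The levels below, that of NECTIN4 included, are therefore those of the libraries labelled HT1376. No other profile of the line was used to check identity. The blood cell markers PTPRC, CD3E, LYZ and HBB each had fewer than 10 counts in every sample. The summed CPM of the epithelial markers was 3462 and 3499 in EV and 1630 and 1612 in WFI. Without KRT8, the highest of them in WFI, it was 1574 and 1596 in EV and 890 and 885 in WFI. Of the 11 that could be tested 10 were higher in EV, beside 66% called and 34.5% higher among all genes tested. Of these 10, 4 passed the filter through EV alone, so a fall was not possible at their WFI level. The summed CPM of the 7 mesenchymal markers was 7623 and 7526 in EV and 12157 and 11992 in WFI. Among the 6 tested, 2 were higher, 3 lower and 1 not called. The lower sum in EV came from FN1, which encodes fibronectin, and without FN1 the sum was 2293 and 2258 in EV and 2069 and 2054 in WFI. The part of these marker differences in the results on the 6 called nectin-family genes was not tested.

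Upstream sequence is shown for 3 of the genes because it lets a reader compare NECTIN4 and AFDN, which fell, with PVR, which rose. RefSeq promoters on GRCh38.p14 were found for 6 of the 8 genes, all but NECTIN1 and CADM1. Only the 250 bases before each start were used. Capitals mark the E-box CACCTG, searched on both strands, which is the sequence bound by SNAI and ZEB repressors of epithelial genes.
NECTIN4, chr1:161089559-161089808, minus strand: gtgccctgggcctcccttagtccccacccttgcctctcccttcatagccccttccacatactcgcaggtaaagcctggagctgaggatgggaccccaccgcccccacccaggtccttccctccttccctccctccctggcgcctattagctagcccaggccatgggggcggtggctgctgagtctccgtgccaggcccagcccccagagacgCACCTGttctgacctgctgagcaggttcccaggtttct
AFDN, chr6:167827385-167827634, plus strand: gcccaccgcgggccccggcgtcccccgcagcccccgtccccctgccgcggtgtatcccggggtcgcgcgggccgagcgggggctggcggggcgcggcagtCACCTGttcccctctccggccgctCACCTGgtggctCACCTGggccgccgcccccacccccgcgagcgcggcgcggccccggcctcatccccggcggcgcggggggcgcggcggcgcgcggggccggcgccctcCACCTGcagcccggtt
PVR, chr19:44643660-44643909, plus strand: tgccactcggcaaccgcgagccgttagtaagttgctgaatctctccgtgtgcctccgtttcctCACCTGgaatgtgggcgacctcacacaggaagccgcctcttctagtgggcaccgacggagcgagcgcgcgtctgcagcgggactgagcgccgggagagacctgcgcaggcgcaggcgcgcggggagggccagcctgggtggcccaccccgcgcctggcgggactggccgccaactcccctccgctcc
The E-box was found 1 time in the window of NECTIN4, 38 bases before its RefSeq start, and 4 times in that of AFDN. These matches of NECTIN4 and AFDN lie within the GENCODE gene coordinates. The E-box was also found 1 time each in the windows of PVR, at 187 bases, and CADM4, at 222 bases. No match lay in the windows of NECTIN2 and NECTIN3. The share of all 35116 RefSeq promoter windows of this length with a match was 17.5%. The motif thus occurred in the windows of genes that fell, rose or did not pass the test. The AP-1 motif TGANTCA was found in 0 of the 6 windows and in 6.57% of all windows. These matches describe letters in a window and say nothing of binding.

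NECTIN4 lies on chromosome 1 (ENSG00000143217, hg38, 161070995 to 161089599, minus strand). It had 9 and 6 counts in the EV samples and 28 and 29 in the WFI samples, the fewest in EV of the 8 genes. Counts in both EV samples lay below those in both WFI samples. With exact Poisson 95% intervals, which cover counting error only, the levels were 0.495 CPM (0.226 to 0.939) and 0.310 CPM (0.114 to 0.674) in EV, against 1.36 CPM (0.901 to 1.96) and 1.39 CPM (0.928 to 1.99) in WFI. The upper bound of EV replicate 1 lies above the lower bounds of both WFI samples. Overlap of separate intervals does not test whether counts differ, and single libraries were not compared directly. The fitted fold was 0.295 (95% interval 0.129 to 0.678), a log2 fold change of -1.76 (SE 0.54; adjusted p = 0.0144 in edgeR). With DESeq2 the log2 fold change was -1.75 and the call was lost (adjusted p = 0.0589). It was also lost without WFI replicate 1 (edgeR adjusted p = 0.136) or WFI replicate 2 (edgeR adjusted p = 0.150), while the log2 fold change was -1.47 to -2.13 over the 4 fits that each left out 1 sample. The antisense gene NECTIN4-AS1 had 0 counts in both EV samples and 2 and 0 in WFI. Per kb of spliced length, NECTIN4 stood above 28.7% of 19862 protein coding genes in EV and above 42.5% in WFI. Of these genes 17445 had a count in EV and 15765 in WFI. More genes at 0 thus lay below NECTIN4 in WFI, and the difference between these percentages is not that of NECTIN4 alone. Of 13514 other protein coding genes tested, those whose log2 CPM in the 4 samples lay nearest to that of NECTIN4 were SYT17, NOX5 and ACER2, at Euclidean distances of 0.262, 0.357 and 0.361. All 3 had 7 to 9 counts in each EV sample and 24 to 30 in each WFI sample, so the likeness is one of low counts over 4 samples.

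NECTIN1 encodes a receptor for herpes simplex virus that binds nectin-3 and nectin-4 on neighbouring cells (ENSG00000110400, chromosome 11, 119623408 to 119729084, minus strand). It had 1111 and 1324 counts in EV and 507 and 510 in WFI. Both EV samples lay far above both WFI samples. The level was 64.7 ± 5.17 CPM in EV and 24.5 ± 0.120 CPM in WFI (SD, n = 2 each). The WFI SD lies below counting error, with an exact Poisson 95% interval of 22.5 to 26.8 CPM in WFI replicate 1. Other SDs of 2 samples given below can likewise lie under counting error. The log2 fold change was 1.40 (SE 0.09, 95% interval 1.21 to 1.59, edgeR adjusted p = 1.01e-07), higher than in 85.7% of all genes tested. Tested genes of similar spliced length (decile 9 of 10) had a median log2 fold change of -0.33. With fold changes corrected for the trend over gene length and GC content (hereafter length-corrected), the value was 1.28 (edgeR adjusted p = 3.79e-08). The antisense gene AP003393.1, which shares 148 exon bases with NECTIN1 on the other strand, had 48 and 42 counts in EV and 0 in both WFI samples. The strand setting of the counting is not given in the sources used here, so reads of this pair cannot be told apart with certainty, though those antisense counts are few beside the rise of NECTIN1.

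NECTIN3, which encodes a strong binding partner of nectin-1, moved the other way (ENSG00000177707, chromosome 3, 111070071 to 111275563, plus strand). It had 632 and 582 counts in EV and 944 and 965 in WFI. The groups did not overlap. The level was 32.4 ± 3.31 CPM in EV and 45.9 ± 0.298 CPM in WFI (SD, n = 2 each), a log2 fold change of -0.50 (SE 0.09, edgeR adjusted p = 0.000592). Antisense counts were again few, with 4 and 13 for NECTIN3-AS1 in EV and 8 and 7 in WFI. The order of this ligand pair within a library therefore differed between groups. Counts of NECTIN1 per count of NECTIN3 were 1.76 (exact binomial 95% interval 1.59 to 1.94) and 2.27 (2.06 to 2.51) in EV, against 0.537 (0.481 to 0.599) and 0.528 (0.474 to 0.589) in WFI. Per kb of spliced length the ratio was 1.41 and 1.83 in EV and 0.431 and 0.424 in WFI. Per kb of the principal transcript it was 1.10 and 1.43 in EV and 0.337 and 0.332 in WFI. On both lengths NECTIN1 exceeded NECTIN3 in each EV sample and was lower than NECTIN3 in each WFI sample.

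NECTIN2 encodes a ligand of the lymphocyte receptors PVRIG, TIGIT and CD226 (ENSG00000130202, chromosome 19, 44846175 to 44889228, plus strand). It had 1546 and 1549 counts in EV and 2144 and 2172 in WFI. This was a small fall with groups apart, 82.5 ± 3.52 CPM in EV and 103.8 ± 0.0106 CPM in WFI (SD, n = 2 each), and a log2 fold change of -0.33 (SE 0.05, edgeR adjusted p = 0.000291). The WFI SD lies far below counting error, as the exact Poisson 95% interval was 99.5 to 108.3 CPM in each WFI sample. The length-corrected value was -0.78 (edgeR adjusted p = 1.11e-07). PVR, also named CD155, is the poliovirus receptor and a ligand of CD226, TIGIT and CD96 (ENSG00000073008, chromosome 19, 44643798 to 44663583, plus strand). PVR had 3259 and 3568 counts in EV and 2592 and 2605 in WFI. Both EV samples were above both WFI samples, with 181.7 ± 3.63 CPM in EV and 125.0 ± 0.692 CPM in WFI (SD, n = 2 each) and a log2 fold change of 0.54 (SE 0.04, edgeR adjusted p = 9.22e-07). PVR no longer passed when length-corrected, at a log2 fold change of 0.08 (edgeR adjusted p = 0.106), where the correction moved the median of all genes by -0.15. Tested genes in the spliced length decile of PVR (decile 4 of 10) had a median log2 fold change of 0.21. The neighbouring gene CEACAM19 shares 121 exon bases with PVR on the same strand and had 54 and 70 counts in EV and 37 and 38 in WFI. Counts of PVR per count of NECTIN2 were 2.11 (exact binomial 95% interval 1.98 to 2.24) and 2.30 (2.17 to 2.45) in EV, against 1.21 (1.14 to 1.28) and 1.20 (1.13 to 1.27) in WFI.

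AFDN encodes afadin, the cytoplasmic protein that joins nectin tails to actin (ENSG00000130396, chromosome 6, 167826922 to 167972023, plus strand). It had 1229 and 1339 counts in EV and 2746 and 2658 in WFI. Both EV samples lay far below both WFI samples. The level was 68.4 ± 1.13 CPM in EV and 130.0 ± 4.17 CPM in WFI (SD, n = 2 each), a log2 fold change of -0.93 (SE 0.05, 95% interval -1.05 to -0.81, edgeR adjusted p = 5.98e-08). AFDN has the longest spliced length of the 8 genes, 13720 bases, and tested genes of its length decile had a median log2 fold change of -0.55. Its length-corrected value was -0.57 (edgeR adjusted p = 1.42e-06). The divergent gene AFDN-DT had 10 and 2 counts in EV and 3 and 6 in WFI.

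The CADM genes encode nectin-like adhesion proteins, of which CADM1 is a tumour suppressor in lung cancer. CADM1 (ENSG00000182985, chromosome 11, 115169218 to 115504957, minus strand) showed overlapping groups, with 43 and 34 counts in EV and 23 and 39 in WFI. Its log2 fold change of 0.46 had a 95% interval of -0.45 to 1.37 (edgeR adjusted p = 0.343), an interval that reaches a 2.59-fold rise. CADM4 (ENSG00000105767, chromosome 19, 43622368 to 43639839, minus strand) also overlapped, with 127 and 113 counts in EV and 125 and 141 in WFI. Its level was 6.41 ± 0.810 CPM in EV and 6.40 ± 0.486 CPM in WFI (SD, n = 2 each), with a log2 fold change of 0.0015 and a 95% interval of -0.45 to 0.45 (edgeR adjusted p = 0.996). When length-corrected, CADM4 was lower in EV, at -0.57 (edgeR adjusted p = 0.0282).

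**Figure D2:**
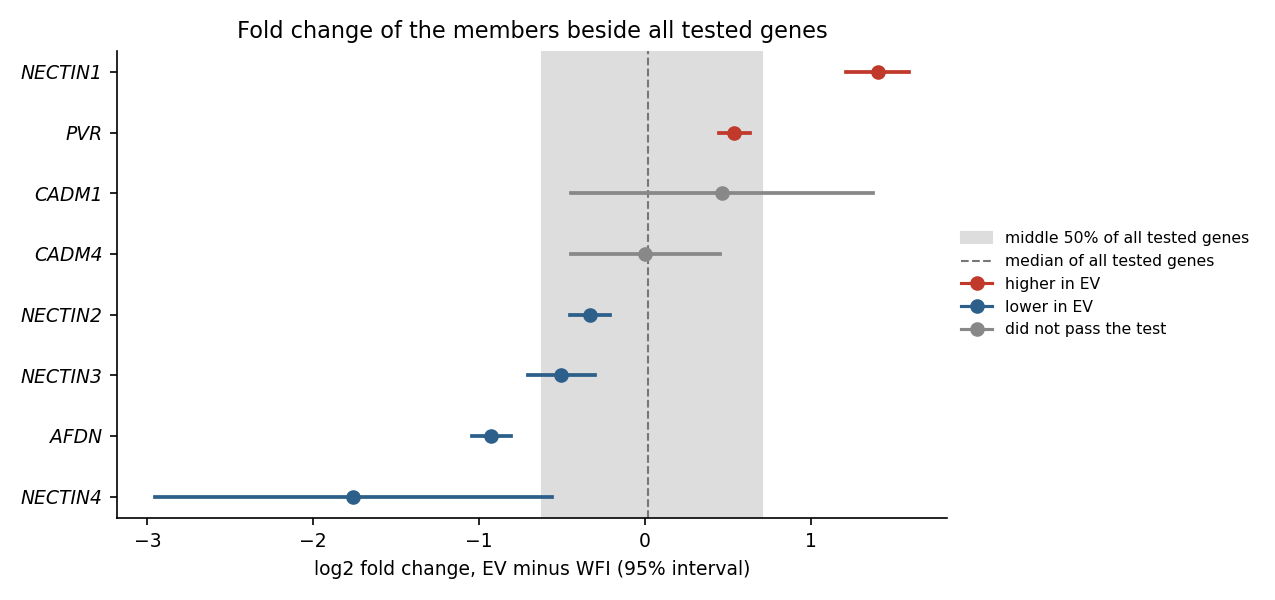
Log2 fold change, EV minus WFI, of the 8 genes with 95% intervals from edgeR, in red where higher, blue where lower and grey where the test was not passed. The grey band is the interquartile range of all genes tested and the dashed line their median of 0.02. NECTIN1 lies above the band, NECTIN4 and AFDN below it, and the interval of NECTIN4 is the widest.

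Across the 8 genes, levels were compared per kb of spliced length, the merged exons of the gene in GENCODE 29. In EV the order was PVR (51.6 ± 1.03 CPM per kb), NECTIN2 (22.0 ± 0.940), NECTIN1 (8.40 ± 0.671), NECTIN3 (5.24 ± 0.535), AFDN (4.98 ± 0.0824), CADM4 (2.85 ± 0.360), CADM1 (0.187 ± 0.0390) and NECTIN4 (0.115 ± 0.0373), as mean and SD of 2 samples. NECTIN3 and AFDN overlapped between samples, and no other neighbours did. In WFI the order was PVR (35.5 ± 0.197 CPM per kb), NECTIN2 (27.7 ± 0.0026), AFDN (9.48 ± 0.304), NECTIN3 (7.43 ± 0.0481), NECTIN1 (3.18 ± 0.0156), CADM4 (2.85 ± 0.216), NECTIN4 (0.391 ± 0.0062) and CADM1 (0.135 ± 0.0482), with no overlap between neighbours. By mean level, NECTIN1 was thus the third highest gene in EV and the fifth in WFI. These overlaps compare the 2 samples of each gene and leave out counting error, below which several of these SDs lie. With counting error, the order of CADM1 and NECTIN4 in EV, and of NECTIN1 and CADM4 in WFI, is uncertain. Per kb of the principal transcript, PVR was above NECTIN2 in EV (54.6 ± 1.09 and 39.1 ± 1.67 CPM per kb) but below it in WFI (37.6 ± 0.208 and 49.2 ± 0.0047), so the order of this pair in WFI depends on the length used. On that length AFDN and NECTIN1 overlapped in EV, and NECTIN4 and CADM1 in WFI. The isoform expressed was not measured.

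The makeup of the 4 nectins and PVR as a set also differed between groups. Per kb of spliced length, NECTIN1 made up 9.09% and 10.1% of these 5 genes in EV and 4.29% and 4.27% in WFI. PVR made up 58.3% and 59.8% in EV and 48.0% and 47.7% in WFI, while NECTIN2 made up 26.0% and 24.4% in EV and 37.3% and 37.4% in WFI. NECTIN4, the antigen of the drug, made up 0.162% and 0.101% in EV and 0.521% and 0.534% in WFI. The summed level of the 5 genes was 360 and 363 CPM in EV and 301 and 300.2 CPM in WFI.

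**Figure D3:**
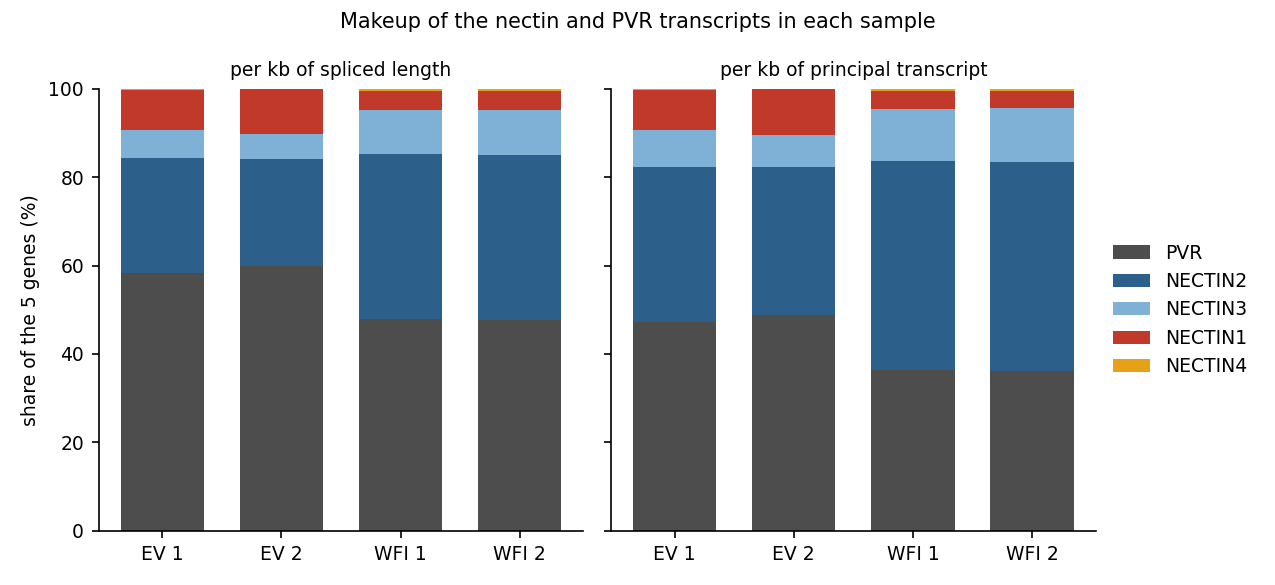
Share of each gene among the 4 nectins and PVR in each sample, in percent of the 5 genes, with counts divided by spliced length (left panel) or by the length of the principal transcript (right panel). The shares of PVR and NECTIN1 are larger, and those of NECTIN2 and NECTIN3 smaller, in both EV samples than in both WFI samples, and NECTIN4 is a thin line at the top of the WFI bars.

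Of 41 further genes that bind or act with nectins, afadin or CADM proteins, 33 could be tested, and 6 rose, 16 fell and 11 did not pass. Their called share of 66.7% lay near the 66% of all genes tested, with a median log2 fold change of -0.14. When length-corrected, 9 of the 33 were higher and 14 lower. In that fit 4815 of all 17073 genes tested were higher and 6335 lower. The other nectin-like genes CADM2 and CADM3 lay below the filter, CADM2 with 5 and 0 counts in EV and 0 in both WFI samples and CADM3 with 0 in all 4. Of 6 receptor genes of lymphocytes, 4 lay below the filter. TIGIT had 0 counts in both EV samples and 1 and 8 in WFI, CD226 had 4 and 4 in EV and 6 and 12 in WFI, CD96 had 10 and 2 in EV and 0 in both WFI samples, and PVRIG had 0 and 5 in EV and 6 and 11 in WFI. CRTAM, a receptor that binds CADM1, had 42 and 91 counts in EV and 1 and 0 in WFI, a ratio of 147 (exact binomial 95% interval 26.0 to 5859, counting error only). With 1 WFI count in all, CRTAM entered the test because of EV alone, and no fall was possible. KLRG1, which binds cadherins, had 5 and 14 counts in EV and 2 and 11 in WFI and did not pass the test (edgeR adjusted p = 0.507).

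The cadherin and catenin genes, whose proteins join nectins in adherens junctions, were mixed. CDH2, which encodes N-cadherin, had 2709 and 2948 counts in EV and 3173 and 3246 in WFI, a log2 fold change of -0.04 that did not pass the test (95% interval -0.13 to 0.06, edgeR adjusted p = 0.483). It passed as lower when length-corrected, at -0.13 (edgeR adjusted p = 0.0210), but the median of all genes in that fit was also -0.13. CDH3 had 14 and 8 counts in EV and 14 and 10 in WFI (edgeR adjusted p = 0.972), and CDH1 lay below the filter. Of 4 catenins, 2 fell and 2 did not pass, beside 66% called and 31.5% lower among all genes tested. CTNND1, which encodes p120-catenin, fell to 3.73 ± 0.0617 CPM in EV, against 10.6 ± 0.346 CPM in WFI (SD, n = 2 each), and JUP, plakoglobin, to 45.9 ± 0.780 CPM, against 93.0 ± 0.823 CPM. CTNNB1, which encodes beta-catenin, had 8580 and 9089 counts in EV and 9553 and 9596 in WFI (log2 fold change 0.03, 95% interval -0.04 to 0.10, edgeR adjusted p = 0.396), and CTNNA1 had a log2 fold change of 0.07 (edgeR adjusted p = 0.173). Both passed as higher with upper quartile scaling, where at least 50 counts were required, and when length-corrected.

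Of 16 intracellular partners of afadin and nectins, 15 were tested, and 3 rose, 8 fell and 4 did not pass. The called share was 73.3%, near the 66% of all genes tested (34.5% higher, 31.5% lower). RAP1B, a small GTPase whose active form binds afadin, had a log2 fold change of 0.94 (1.57 when length-corrected), its close relative RAP1A one of 0.34 and the polarity gene PARD3 one of 0.33. The scaffold gene IQGAP1 fell to 258.7 ± 2.78 CPM in EV, against 565 ± 2.72 CPM in WFI (SD, n = 2 each). Its log2 fold change was -1.13, and -0.76 when length-corrected. The actin crosslinkers ACTN1 and ACTN4 had log2 fold changes of -0.83 and -0.51. F11R, which encodes junctional adhesion molecule A and is named here after its values were seen, had the lowest log2 fold change of these partners, -1.63 (edgeR adjusted p = 1.29e-06), with 184 and 153 counts in EV and 574 and 583 in WFI. PLEKHA7 had 9 and 6 counts in EV and 17 and 9 in WFI, below the filter.

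Of 8 intracellular partners of CADM proteins, 2 rose, 4 fell and 2 did not pass. The called share was 75%, again near the 66% of all genes tested. CASK, a membrane scaffold kinase, had 1333 and 1382 counts in EV and 2768 and 2951 in WFI (log2 fold change -0.93, SE 0.05, edgeR adjusted p = 5.68e-08). When length-corrected, the value of CASK was -0.44. EPB41L3, a linker of CADM1 to the membrane skeleton, had 1 and 6 counts in EV and 32 and 22 in WFI (edgeR adjusted p = 0.0058). It passed the filter through WFI alone, so a rise was not possible at its EV level, and the call was lost without WFI replicate 1 (edgeR adjusted p = 0.136). EPB41L2 and MPP1 had log2 fold changes of 0.22 and 0.23, and EPB41L1 one of -0.14. MPP1 lost its call without EV replicate 2, WFI replicate 1 or WFI replicate 2 (edgeR adjusted p = 0.0659, 0.121 and 0.305) and with no count filter (0.158). EPB41L1 lost its call without EV replicate 1, WFI replicate 1 or WFI replicate 2 (edgeR adjusted p = 0.0730, 0.0822 and 0.102). It also lost it with RLE scaling (0.0608), upper quartile scaling (0.171), at least 50 counts (0.121) or the length correction (0.0979) in edgeR, and with DESeq2 (adjusted p = 0.160). ADAM10 and ADAM17, metalloproteases that shed the extracellular part of membrane proteins, nectins among them, both fell. ADAM10 had 1380 and 1557 counts in EV and 2981 and 3008 in WFI, and ADAM17 had 741 and 616 in EV and 1580 and 1529 in WFI, with log2 fold changes of -0.88 and -1.05. Length-corrected, both still passed, at -0.27 for ADAM10 and -0.55 for ADAM17.

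**Figure D4:**
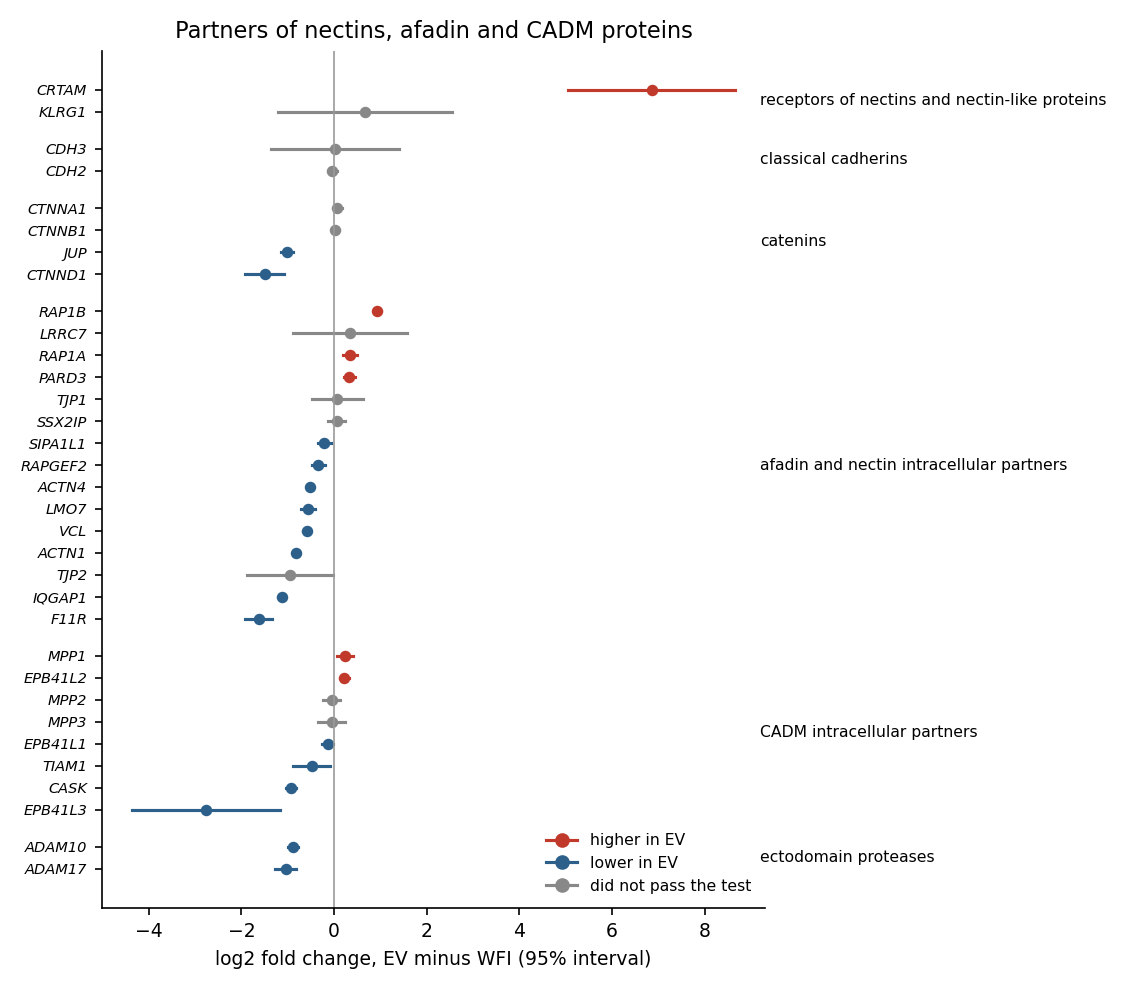
Log2 fold change, EV minus WFI, with 95% intervals for the 33 partner genes that could be tested, grouped by role, in red where higher, blue where lower and grey where the test was not passed. Most calls among the catenins, afadin partners and proteases lie on the lower side, and CRTAM, with 1 WFI count, lies far to the right with a wide interval.

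The direction of the 6 called genes was the same under every setting tried that could test them. NECTIN1 ranged from 1.28 to 1.47 in log2 fold change, and AFDN from -1.004 to -0.57. NECTIN4 could not be tested where at least 50 counts were required in 2 samples, nor could CADM1.

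**Figure D5:**
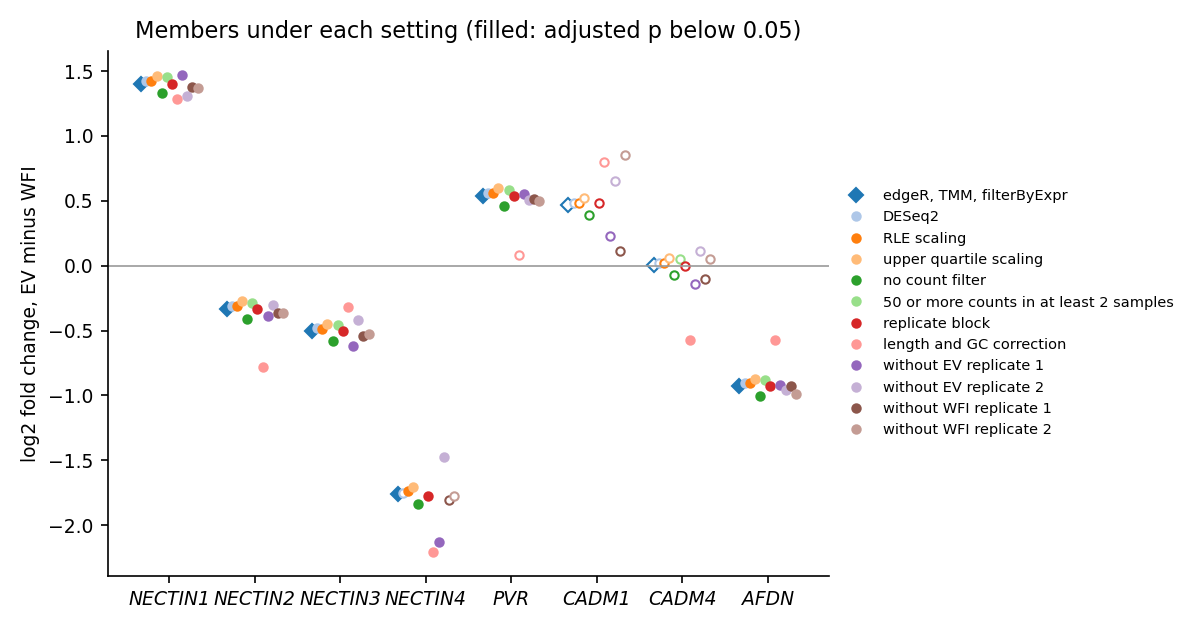
Log2 fold change, EV minus WFI, of the 8 genes under each of 12 settings, with a diamond for the fit reported and filled symbols where the adjusted p was below 0.05. NECTIN1, NECTIN2, NECTIN3 and AFDN are filled throughout, PVR is open when length-corrected, and NECTIN4 is open with DESeq2 and without either WFI sample.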

How the data were processed

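The 4 samples hold RNA-seq of total RNA from cells labelled HT1376, with libraries from a directional kit per the labels' protocols. The authors deposited whole-number counts per gene, with no normalization. The build was hg38 per the submitters' processing notes; the sources used here do not give the aligner, counter, strand setting or annotation used for counting. Total counts per sample ran from 19368791 to 20727175, and counting error is largest for NECTIN4 and CADM1.

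Counts were tested with edgeR 4.0.16 in R 4.3.3 (TMM, filterByExpr, quasi-likelihood test, group as the only term), with p-values adjusted over all 17465 genes tested. Standard errors are the log2 fold change divided by the square root of F. Lengths, coordinates and overlaps came from GENCODE 29 on the same build, whose gene models may differ from those counted; 17073 tested genes had a length. Genes with overlapping or antisense partners are uncertain. The fit was also run on simulated counts in which few genes changed and no trend over gene length was set, unlike these data.

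The 8 members, the partner lists and the motifs were chosen with earlier results of these data known. Named were all members and, per partner list, genes below the filter and the 3 smallest adjusted p in each direction. A listed partner gene and a listed marker are not reported here and are left out of the counts of their lists. The alternatives tried were a replicate block, DESeq2 1.42.0, upper quartile or RLE scaling, no filter, a minimum of 50 counts in 2 samples, leaving out each sample, and offsets that remove a spline trend over gene length and GC content.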

Additional observations from a re-analysis of the deposited data

How the results depend on the processing

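Of the 66 counts of genes higher or lower under an alternative, 65 stayed within 1.5 times the reported count. The exception was the count of nectin-family genes higher in EV, which was 1 when length-corrected, with 5 lower. In that fit 4815 of all 17073 genes tested were higher and 6335 lower, so the shift to lower calls was general. That correction moved the median of all genes by -0.15, and the cause was not tested. Among the named genes, sign changes occurred only for 6 that had not passed the reported test. CADM4 was at -0.075 with no count filter, -0.00078 with the replicate block and -0.57 when length-corrected. CDH3 was at -0.048 with no filter and -0.18 after that correction, CTNNA1 at -0.0067 and CTNNB1 at -0.046 with no filter, and CDH2 at 0.020 with upper quartile scaling and 0.011 with the filter of 50 counts. Leaving out each sample gave -0.14 to 0.11 for CADM4, -0.49 to 0.40 for CDH3, -0.19 to 2.26 for KLRG1, -0.016 to 0.13 for CTNNA1 and -0.0078 to 0.020 for CTNNB1.

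Same-numbered samples share only a number. Their deviations from the group means correlated at 0.016 over 17465 genes, and with the replicate block 5957 genes were higher and 5573 lower in EV, with 2 and 4 nectin-family genes. Depth limits NECTIN4 and CADM1, with at most 43 counts in any sample, and differences there rest on few reads.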
